A study of Mus musculus with 9 samples.

Results

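The 8 genes described here produce long non-coding RNAs (lncRNAs), which are transcripts without a long open reading frame. They are Malat1 and Neat1, which are abundant nuclear lncRNAs, and Gas5, Snhg1, Snhg5, Snhg8, Snhg12 and Snhg15, which host small nucleolar RNAs (snoRNAs) within their transcribed units. The genes were chosen by name and make up 8 of the 28137 genes with deposited values. All 8 passed the filter on low values (a mean of at least 0.5 FPKM, which is reads scaled by gene length and library size, over the 6 libraries compared) in each comparison.

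The 9 libraries came from RAW264.7 cells, a mouse monocyte-macrophage leukemia line, and carry 3 labels with 3 libraries each: NC siRNA (NC), SFRP2 siRNA and RAB6A siRNA. Per the labels, every library received 60 nM siRNA for 6 h. After a further 12 h, lipopolysaccharide at 100 ng/ml was added, and RNA was taken after 24 h of polarization. The study's methods give another amount of siRNA, another transfection reagent and another time after transfection than the labels, and name IFN-γ beside lipopolysaccharide. The labels were followed here. No group is labelled as unstimulated. SFRP2 is a secreted modulator of Wnt signaling, and RAB6A is a small GTPase of Golgi transport. The SFRP2 libraries are titled siRNA-1 to siRNA-3, and the study's supplement lists 3 different SFRP2 siRNAs under these same names. Whether each library received a different one is not stated, and the 3 libraries were treated as replicates of 1 label. The labels do not state separate cultures, so the p-values measure only the spread between these libraries, which may be technical.

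Malat1 RNA collects in nuclear speckles, the stores of splicing factors, and Neat1 RNA is the scaffold of paraspeckles, nuclear bodies that hold RNA-binding proteins. Host genes of snoRNAs have a different output. Their introns are trimmed to snoRNAs that guide chemical modification of ribosomal RNA, while the spliced host RNA is often short-lived and, for hosts such as Gas5, is degraded by nonsense-mediated decay when ribosomes engage it. Several host genes start transcription at a pyrimidine tract, the 5′ terminal oligopyrimidine (TOP) motif that is also found on ribosomal protein genes.

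In GENCODE M21 on GRCm38, Malat1 (ENSMUSG00000092341) lies on the minus strand at chr19:5795690-5802672, and Neat1 (ENSMUSG00000092274) lies on the same strand at chr19:5824708-5845478. The 2 genes are 22035 bases apart. Each is covered by exons over its whole length, 6983 bases for Malat1 and 20771 bases for Neat1. An antisense gene, Gm37376, shares 453 exonic bases (6.49%) with Malat1, and the counting is not stated to use strand, so reads in this stretch cannot be assigned to a strand.

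The host genes are compact. Gas5 (ENSMUSG00000053332) lies at chr1:161034422-161038539 on the plus strand and holds 10 annotated snoRNA genes, among them an overlapping pair named Snord80 and an entry named Mir5117. Snhg1 (ENSMUSG00000108414) lies at chr19:8723475-8726443 on the plus strand and holds 8. Snhg12 (ENSMUSG00000086290) lies at chr4:132308623-132311024 on the plus strand and holds 5, namely Snora44, Snora61, Snord99 and an overlapping pair named Snora16a. Snhg5 (ENSMUSG00000097195) lies at chr9:88521050-88522929 on the minus strand and holds Snord50a and Snord50b. Snhg8 (ENSMUSG00000104960) at chr3:123507552-123508404 and Snhg15 (ENSMUSG00000085156) at chr11:6525591-6528760, both on the minus strand, hold 1 snoRNA gene each, Snora24 and Snora9. All 27 snoRNA genes fall inside the merged exons of their hosts, since annotated transcripts count these intervals as exonic. A host's FPKM therefore cannot be taken to separate spliced RNA, unspliced RNA and fragments of the snoRNA. For Snhg5 and Snhg15, FPKM multiplied by M21 exon length did not give whole reads. Their deposited values may rest on other exons, and whether their snoRNA intervals were counted is not known. None of the 27 snoRNA genes, by its M21 identifier, was among the genes with deposited values, so the snoRNAs themselves were not analysed here.

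RefSeq promoters (GRCm38.p6) matched 7 of the 8 genes, all but Neat1, and Gas5 had 2 annotated starts. The windows of host genes are shown because the start site is what the TOP motif is defined by. Each holds 40 bases before the start and 20 from the start on, read 5′ to 3′ on the gene's strand. Capitals mark TATAAA before the start, or a pyrimidine tract at the start, defined as C followed by at least 4 C or T and beginning between 5 bases before and 6 after it.
Gas5, second start, chr1:161035126-161035185 (+): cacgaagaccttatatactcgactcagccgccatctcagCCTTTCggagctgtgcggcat
Snhg8, chr3:123508317-123508376 (-): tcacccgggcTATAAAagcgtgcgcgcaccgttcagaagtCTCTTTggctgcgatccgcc
Snhg12, chr4:132308638-132308697 (+): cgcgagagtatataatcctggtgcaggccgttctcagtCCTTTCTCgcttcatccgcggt
Snhg5, chr9:88522878-88522937 (-): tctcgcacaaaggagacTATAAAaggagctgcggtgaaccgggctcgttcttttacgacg
Snhg1, chr19:8723447-8723506 (+): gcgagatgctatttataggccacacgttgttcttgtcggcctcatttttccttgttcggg
Snhg15, chr11:6528741-6528800 (-): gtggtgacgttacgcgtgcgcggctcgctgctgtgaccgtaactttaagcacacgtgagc

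The tract stood at the second start of Gas5 and at the starts of Snhg8 and Snhg12, and it was found in 16.1% of all 32841 promoters. TATAAA on the gene's strand in the 40 bases before the start was found in Snhg5 and Snhg8, and in 2.31% of all promoters. The first start of Gas5 and the windows of Malat1, Snhg1 and Snhg15 held neither. On either strand of the 300-base promoter, the cAMP response element TGACGTCA was found in Snhg15 and at the second start of Gas5 (1.79% of all promoters). The E-box CACGTG was found in Snhg15 (7.15% of all promoters). These matches describe letters only, and the windows and motifs were chosen after the values of the files had been seen.

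The libraries held 32758729 to 47149258 reads each, recovered from the FPKM steps. Mitochondrial genes took 8.93% to 12.4% of the reads. The macrophage label was checked on 10 marker genes, whose summed level was 4582 to 5050 FPKM in NC, 4054 to 4383 FPKM in the libraries labelled SFRP2 siRNA and 3979 to 4142 FPKM in those labelled RAB6A siRNA. Cd68 (1850 FPKM in NC), Cd14 (1679 FPKM) and Lyz2 (872 FPKM) made up most of this sum, so it says little about the other markers. Mrc1 was at only 0.0738 FPKM in NC. Sfrp2 itself was near the limit of measurement, at 0.0213 ± 0.0014 FPKM in NC and 0.0401 ± 0.0116 FPKM in the libraries labelled SFRP2 siRNA (SD, n = 3), so its level does not verify that label. Rab6a was at 20.4 to 21.2 FPKM in the libraries labelled RAB6A siRNA and at 24.3 to 27.3 FPKM in NC. Its means were 20.75 ± 0.445 FPKM and 25.69 ± 1.48 FPKM (SD, n = 3). Most of the Rab6a RNA remained, so this level does not by itself verify that label.

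The 8 genes spanned a wide range of levels. In NC, Malat1 was the highest of them at 160.5 ± 15.8 FPKM (SD, n = 3), and 230 genes of the table had a higher mean. Gas5 followed at 34.0 ± 2.63 FPKM. Neat1 (15.8 ± 0.791 FPKM) and Snhg8 (15.5 ± 0.154 FPKM) could not be ordered, since their libraries overlapped. Snhg1 came next at 8.48 ± 0.452 FPKM. Snhg12 (5.91 ± 0.467 FPKM) and Snhg15 (5.28 ± 0.358 FPKM) overlapped as well, and Snhg5 was lowest at 3.55 ± 0.323 FPKM. In the libraries labelled RAB6A siRNA the order was different, with Neat1 above Gas5 in every library. Neat1 per Gas5 was 0.409 to 0.5002 in NC and 2.09 to 2.91 under the RAB6A label, as a ratio of FPKM.

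**Figure D1:**
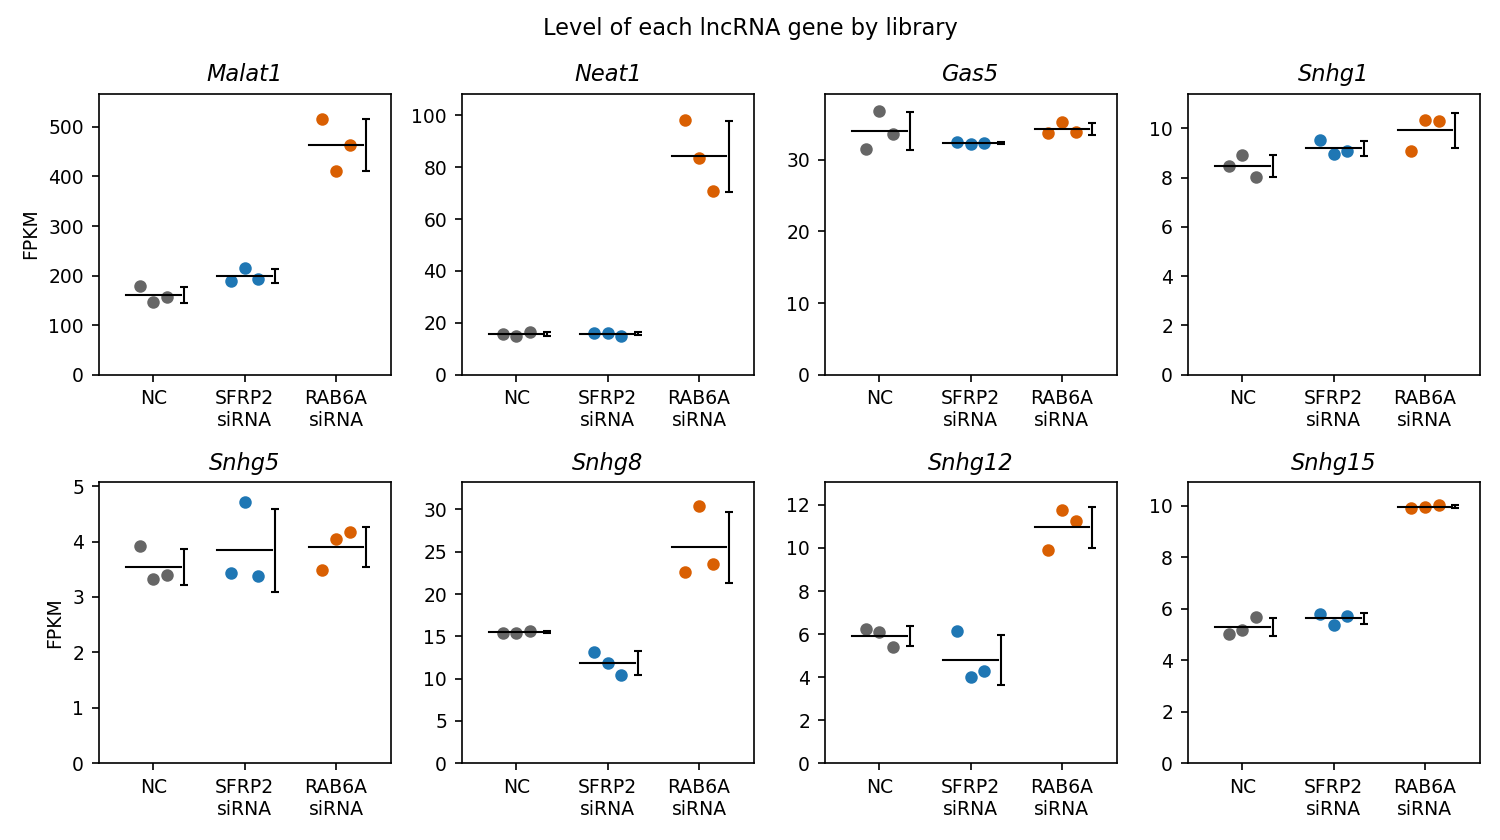
Level of each of the 8 lncRNA genes in FPKM (vertical axis, linear, from 0) in the 3 libraries of each group. Points are libraries, horizontal lines are group means and the bars beside them are ± 1 SD. Malat1, Neat1, Snhg8, Snhg12 and Snhg15 are higher in every RAB6A siRNA library than in any other library, whereas the Gas5 and Snhg5 libraries of NC and RAB6A siRNA overlap.

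The first comparison asked what differed between cells labelled RAB6A siRNA and NC. Malat1, Neat1, Snhg1, Snhg8, Snhg12 and Snhg15 rose, by limma at an adjusted p under 0.05, and none of the 8 fell. Gas5 and Snhg5 did not pass the test. The 6 of 8 genes called stand against 74.1% of the 12712 genes tested that were called in either direction and 37.6% that were called higher (36.5% were called lower). The same 6 genes had no overlap between the groups, against 77.4% of all genes (39.2% higher). The median log2 fold change was 0.79 over the 8 genes and 0.03 over all genes tested.

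Neat1 had the largest change of the 8. It was at 15.8, 15.1 and 16.6 FPKM in NC and at 98.1, 83.6 and 70.8 FPKM in the libraries labelled RAB6A siRNA. The groups were far apart, and the lowest RAB6A library was well above the highest NC library. The log2 fold change was 2.39 ± 0.11 (SE, limma, adjusted p = 2.81e-06), with means in a ratio of 5.32. Only 5.85% of the genes tested had a larger absolute change. Neat1 reads numbered 10840 to 74062 per library, so counting error was small beside the spread between libraries.

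Malat1 was at 178.1, 147.6 and 155.9 FPKM in NC and at 516.7, 410.8 and 462.7 FPKM under the RAB6A label, with no overlap. Its log2 fold change was 1.53 ± 0.11 (SE, adjusted p = 1.14e-05), and 15.7% of genes had a larger absolute change. Malat1 took 0.103% to 0.124% of all reads in NC and 0.287% to 0.361% under the RAB6A label. The neighboring genes did not change in proportion to each other. Malat1 per Neat1 was 9.37 to 11.3 in NC and 4.91 to 6.54 under the RAB6A label, as a ratio of FPKM. Malat1 and Neat1 were the only members of the 8 past an absolute log2 fold change of 1, the limit for a differentially expressed gene (DEG), which 30.1% of all genes passed (17.3% as higher).

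Among the snoRNA hosts, Snhg15, which carries Snora9, was at 5.00, 5.16 and 5.69 FPKM in NC and at 9.91, 9.93 and 10.0 FPKM under the RAB6A label. The 3 RAB6A libraries lay very close together (SD 0.0699 FPKM). The log2 fold change was 0.90 ± 0.07 (SE, adjusted p = 1.68e-05). Snhg12, the host of Snora16a, Snora44, Snora61 and Snord99, was at 6.25, 6.09 and 5.38 FPKM in NC and at 9.91, 11.8 and 11.2 FPKM under the RAB6A label. Its groups did not overlap, and its log2 fold change was 0.88 ± 0.09 (SE, adjusted p = 7.76e-05).

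Snhg8, the host of Snora24, was at 15.4, 15.4 and 15.7 FPKM in NC and at 22.6, 30.4 and 23.5 FPKM under the RAB6A label. The NC libraries were nearly equal, and the second RAB6A library was the highest. The log2 fold change was 0.70 ± 0.11 (SE, adjusted p = 0.000676). Snhg8 is the shortest of the 8 genes. Its call ended when each library was corrected for GC content and exon length together (log2 fold change 0.22, adjusted p = 0.114, in a range of 2.71e-05 to 0.114 over all alternatives). The parts of GC content and of length in this were not separated.

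Snhg1 was at 8.48, 8.93 and 8.03 FPKM in NC and at 9.08, 10.4 and 10.3 FPKM under the RAB6A label. The lowest RAB6A library was just above the highest NC library. Its log2 fold change of 0.22 ± 0.08 (SE) passed at an adjusted p of 0.0308. The call was lost without NC 1 (adjusted p = 0.0737), NC 3 (0.0973), RAB6A siRNA 2 (0.0955) or RAB6A siRNA 3 (0.0762), in a range of 0.00542 to 0.0973 over all alternatives.

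Gas5 and Snhg5 did not pass. Gas5, the host of Snord47, Snord78, Snord80 and others, was at 31.5, 36.8 and 33.6 FPKM in NC and at 33.8, 35.3 and 33.8 FPKM under the RAB6A label. The NC libraries enclosed the RAB6A libraries. The log2 fold change was 0.02, with a 95% interval from -0.14 to 0.18 (adjusted p = 0.840). Gas5 passed with quantile normalization (0.19, adjusted p = 0.0373) and with the correction for GC content and length (0.19, adjusted p = 0.0424), in a range of 0.0373 to 0.959 over all alternatives. Snhg5, the host of the Snord50 pair, was at 3.92, 3.33 and 3.39 FPKM in NC and at 3.48, 4.04 and 4.17 FPKM under the RAB6A label. These values overlapped, and the log2 fold change was 0.13, with a 95% interval from -0.11 to 0.37 (adjusted p = 0.269).

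**Figure D2:**
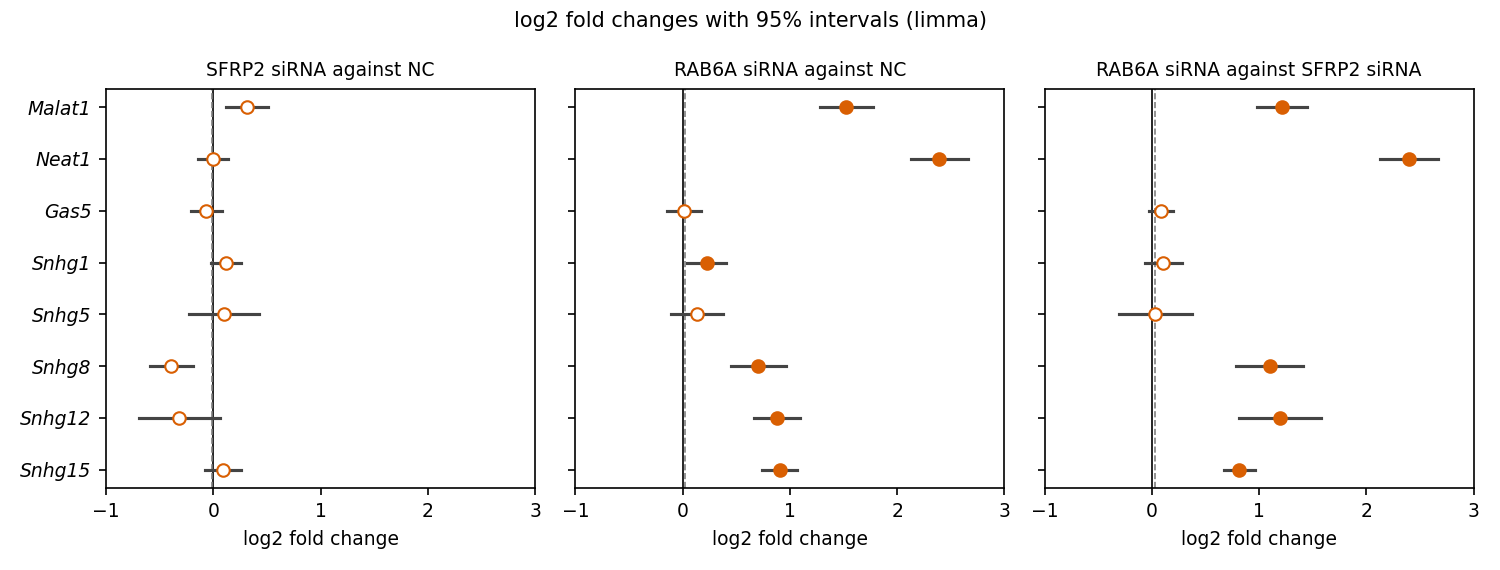
log2 fold changes of the 8 lncRNA genes (horizontal axis) in the 3 comparisons, with 95% intervals from limma. Filled points passed an adjusted p under 0.05, open points did not, and the dashed line is the median of all genes tested. Under the RAB6A label against NC, 6 points are filled and the point for Neat1 lies farthest to the right at 2.39, and against the SFRP2 label 5 are filled. No point is filled for the SFRP2 label against NC.

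The second comparison asked what differed between cells labelled SFRP2 siRNA and NC. None of the 8 genes passed limma at an adjusted p under 0.05, and neither did any of the 12017 genes tested (0%). At an unadjusted p under 0.05 there were 2 of the 8 genes (Snhg8 and Malat1), against 18.5% of all genes. With voom on the recovered reads 41 genes were called, none of them among the 6 of the 8 genes that could be fitted. Groups did not overlap for 3 of the 8 genes, against 24.7% of all genes. Of these, 2 were higher (10.9% of all genes) and 1 was lower (13.9%). The median log2 fold change was 0.04 over the 8 genes and -0.01 over all genes tested.

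Snhg8 had the smallest p of the 8. It was at 13.2, 11.9 and 10.4 FPKM in the libraries labelled SFRP2 siRNA, each below the NC libraries. The log2 fold change was -0.39 ± 0.09 (SE, adjusted p = 0.168). Malat1 was at 189.9, 216.2 and 192.1 FPKM under the SFRP2 label, each above the NC libraries. Its log2 fold change was 0.31 ± 0.08 (SE, adjusted p = 0.179), and 0.19 with the correction for GC content and length. The Snhg1 libraries labelled SFRP2 siRNA, at 9.52, 8.96 and 9.07 FPKM, also lay above those of NC, by a margin far smaller than their own range, with a log2 fold change of 0.12 ± 0.06 (SE, adjusted p = 0.335). With the correction for GC content and length, this value of Snhg1 was 0.0018.

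The other 5 genes overlapped between the SFRP2 label and NC. Neat1 was at 16.2, 16.2 and 15.02 FPKM under the SFRP2 label. Its log2 fold change was -0.0019, with a 95% interval from -0.14 to 0.13 (adjusted p = 0.991). On the spread between these libraries alone, which may be technical, this interval allows only a small difference in Neat1, whereas that of Snhg12 was wide. Snhg12 was at 6.13, 3.98 and 4.29 FPKM under the SFRP2 label, where the first library lay within the NC range and the other libraries lay below it. Its log2 fold change was -0.32 with a 95% interval from -0.69 to 0.06 (adjusted p = 0.325), and it was -0.50 without SFRP2 siRNA 1 and -0.20 without SFRP2 siRNA 2. Snhg5 was at 3.44, 4.71 and 3.37 FPKM, with 1 library above all others (log2 fold change 0.10, adjusted p = 0.720). Snhg15 was at 5.79, 5.36 and 5.70 FPKM (log2 fold change 0.09, adjusted p = 0.511). Gas5 was nearly equal in the libraries under the SFRP2 label, at 32.5, 32.2 and 32.3 FPKM (log2 fold change -0.07, adjusted p = 0.563).

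The third comparison set the RAB6A label directly against the SFRP2 label. Of the 8 genes, 5 rose (Neat1, Malat1, Snhg12, Snhg8 and Snhg15) and none fell, against 73.4% of 12764 genes called in either direction and 37.6% called higher (35.8% were called lower). Neat1 again had the largest log2 fold change, 2.40 ± 0.12 (SE, adjusted p = 4.70e-06). That of Malat1 was 1.21 ± 0.10 (SE, adjusted p = 3.68e-05), and it was 0.66 after quantile normalization, where the gene was still called but below the DEG limit. Snhg12 and Snhg8 passed the DEG limit here as well, which made 4 of the 8 genes against 31.1% of all genes (17.8% as higher). They had log2 fold changes of 1.20 ± 0.16 (SE, adjusted p = 0.000412) and 1.10 ± 0.13 (SE, adjusted p = 0.000242). With the correction for GC content and length, Snhg8 was at 0.65 and still called but below the DEG limit. Snhg15 rose by 0.82 ± 0.06 (SE, adjusted p = 2.20e-05), and by 0.50 with that correction.

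Gas5, Snhg1 and Snhg5 did not pass between the RAB6A and SFRP2 labels. Gas5 did not overlap between these groups, as was so for 6 of the 8 genes, all higher, and for 77% of all genes (39.3% higher), and its log2 fold change was 0.08 ± 0.05 (SE, adjusted p = 0.154). Gas5 passed with quantile normalization (0.22, adjusted p = 0.00429) and with the correction for GC content and length (0.36, adjusted p = 0.000961), in a range of 0.000961 to 0.346. Snhg1 had a log2 fold change of 0.11 ± 0.07 (SE, adjusted p = 0.214), and passed only with the correction for GC content and length (0.28, adjusted p = 0.0132; with the replicate block in addition, 0.0285), in a range of 0.0132 to 0.444. Snhg5 was at 0.03 ± 0.14 (SE, adjusted p = 0.844). The 3 comparisons share libraries in pairs and are not independent of each other.

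Levels of cell type markers were set beside the changes under the RAB6A label. Of 9 macrophage markers tested against NC, 1 rose (Ptprc, log2 fold change 0.17) and 4 fell. Among those that fell were the lysozyme gene Lyz2 (-2.04) and the receptor gene Csf1r (-1.44). Of all genes tested in this comparison, 37.6% were called higher and 36.5% lower. The call of Ptprc was lost with several alternatives, including the correction for GC content and length. Of 14 markers of other cell types, 12 were in the table, and their summed level was 3.22 to 3.27 FPKM in NC, 2.53 to 3.28 FPKM under the SFRP2 label and 3.77 to 6.30 FPKM under the RAB6A label. In NC, 1 of these 12 was at 0 in every library, and 2 were so under the SFRP2 label. Dcn (0.81) and Pecam1 (0.69) were called higher under the RAB6A label at levels below 1 FPKM. Their NC means of 0.348 and 0.475 FPKM were under the filter of 0.5, so they were tested only through the group where they are high. The 2 calls were lost with quantile normalization, that of Dcn also with no filter and without any 1 of the NC libraries. In bulk libraries, fewer cells of a type and less RNA per cell cannot be told apart. The part of these markers in the lncRNA values was not tested.

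Other genes of the same kind were taken from lists written by hand. Of all genes tested under the RAB6A label against NC, 37.6% were called higher and 36.5% lower. Of 8 tested lncRNA hosts of snoRNAs outside the 8 genes, 6 rose, 1 fell and 1 did not pass in this comparison. Their median log2 fold change was 0.72. Snhg10 had a log2 fold change of 1.27 ± 0.32 (SE, adjusted p = 0.00742), a call that ended with the correction for GC content and length (0.52). Snhg18 rose by 1.23 ± 0.18 (SE, adjusted p = 0.000520). Dancr fell by 1.19 ± 0.36 on the log2 scale (SE, adjusted p = 0.0188), a call that was lost without NC 3 (-0.94). Its mean under the RAB6A label, 0.415 FPKM, was below the filter of 0.5, so Dancr was tested only through NC, where it is high. Other lncRNA genes were spread to either side of 0, with 5 of 15 called higher, 4 called lower and a median of 0.02. Of these, Trp53cor1 (1.72) and Firre (1.41), which has a role in nuclear organization, rose most, and the microRNA hosts Mir17hg (-3.49) and Mir22hg (-1.80) fell most. Mir17hg, at 0.22 FPKM under the RAB6A label, likewise passed the filter only through NC.

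Genes for proteins that bind snoRNAs, Neat1 or Malat1 or share their nuclear bodies were then counted under the RAB6A label against NC, where 36.5% of all genes were called lower and 37.6% higher. Of 17 genes for snoRNP proteins and their assembly factors, 16 fell and 1 rose (median log2 fold change -1.05). Dkc1, the pseudouridine synthase of box H/ACA snoRNPs, was at 45.5 ± 2.58 FPKM in NC and 5.02 ± 0.861 FPKM under the RAB6A label (log2 fold change -3.17 ± 0.12, SE, adjusted p = 1.34e-06). Nop58, a core protein of box C/D snoRNPs, had a log2 fold change of -2.13, and Nufip1, an assembly factor, was the single gene that rose (1.05). In the same comparison the hosts Snhg12, Snhg15, Snhg8 and Snhg1 rose, by 0.88, 0.90, 0.70 and 0.22. Gas5 (0.02) and Snhg5 (0.13) did not pass.

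Of 15 genes for paraspeckle proteins, the partners of Neat1 RNA, 13 fell, none rose and 2 did not pass (median -0.64). Sfpq, which binds Neat1 and is needed for paraspeckles, was at 68.8 ± 1.74 FPKM in NC and 15.7 ± 1.53 FPKM (log2 fold change -2.13 ± 0.08, SE, adjusted p = 1.24e-06). Neat1 itself rose by 2.39 in this comparison. Of 13 genes for nuclear speckle proteins, where Malat1 resides, 8 fell and 1 rose (median -0.62). Srsf5 (-1.96) and Srsf7 (-1.21), both splicing factors, fell most, and Rnps1 rose by 0.27.

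The factors of nonsense-mediated decay were split under the RAB6A label against NC, with 4 of 15 called higher and 7 called lower. Of all genes, 37.6% were called higher and 36.5% lower. The median log2 fold change of these factors was -0.16. Smg9 (0.65) and Smg6 (0.39), the latter an endonuclease that cuts the target RNA, rose most. Smg8 (-1.52) and Magoh (-1.29), a core protein of the exon junction complex, fell most. Under the SFRP2 label against NC none of the genes of any of these lists was called. Genes with the smallest p in these lists were Zfas1 (log2 fold change -0.34, adjusted p = 0.169), Tug1 (0.29, 0.182), Naf1 (0.38, 0.140), Hnrnpk (0.12, 0.260), Srrm1 (0.21, 0.179), Adgre1 (-0.23, 0.163) and Col1a1 (0.54, 0.528). Naf1, an assembly factor of box H/ACA snoRNPs, passed with voom (adjusted p = 0.0396).

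**Figure D3:**
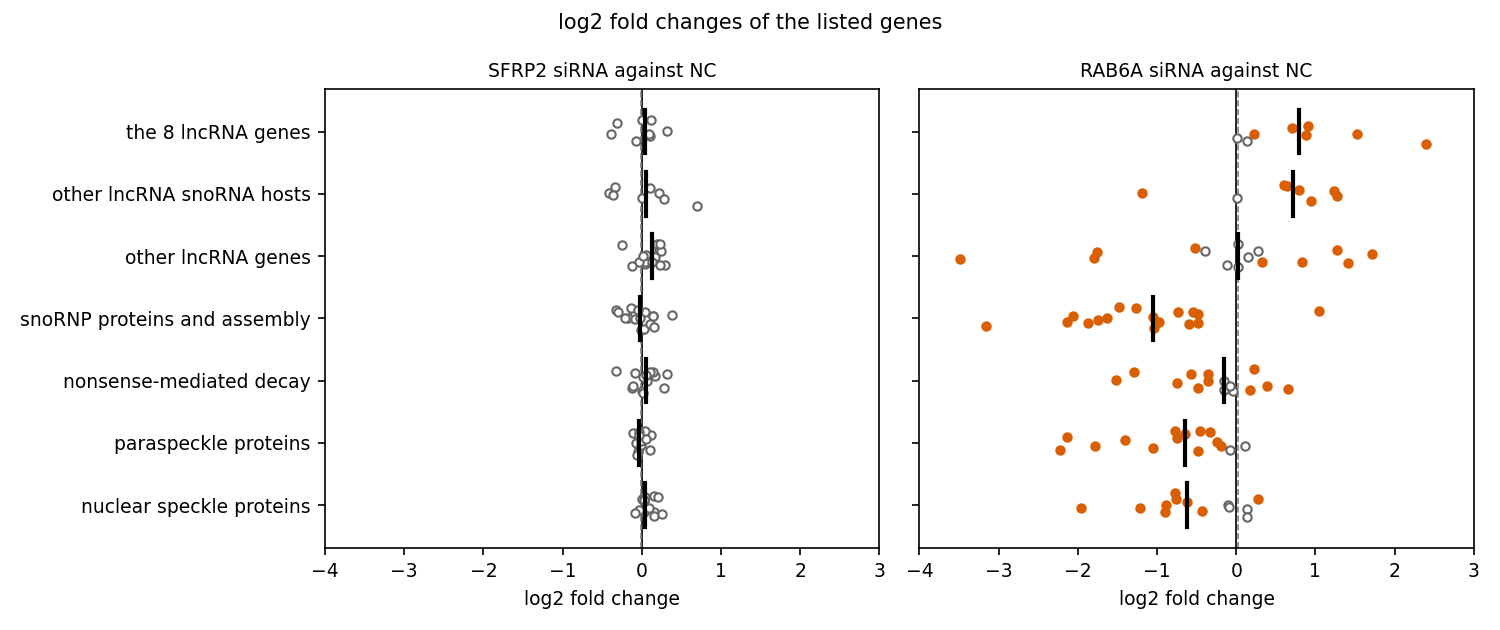
log2 fold changes (horizontal axis) of the 8 lncRNA genes and of 6 lists of other genes, for the SFRP2 label (left) and the RAB6A label (right) against NC. Each point is a gene, filled where the adjusted p was under 0.05, the thick bar is the list's median and the dashed line the median of all genes tested. On the right the medians are 0.79 for the 8 genes, 0.72 for the other snoRNA hosts and -1.05 for snoRNP proteins.

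Nearest protein-coding genes of the members, a rule set after the values had been seen, were compared under the RAB6A label against NC. Frmd8, 4224 bases from Neat1, was at 0.08 ± 0.09 (SE, adjusted p = 0.452). This lies far below the log2 fold change of Neat1 (2.39). Zbtb37, which overlaps Gas5 on the opposite strand without shared exonic bases, rose by 2.00 ± 0.12 (SE, adjusted p = 5.86e-06), whereas Gas5 did not pass. Slc3a2, an amino acid transporter gene 106 bases from Snhg1 on the opposite strand, fell by 0.58 ± 0.06 on the log2 scale (SE, adjusted p = 9.79e-05), whereas Snhg1 had a log2 fold change of 0.22. Zfp949, 25091 bases from Snhg5, rose by 1.24, and Myo1g, 4626 bases from Snhg15, rose by 0.50. Trnau1ap, 739 bases from Snhg12, did not pass (0.22, adjusted p = 0.154) but was called without RAB6A siRNA 3 (0.34).

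The genes most like each lncRNA were found over all 9 libraries, among 10963 genes with a mean of at least 1 FPKM, as those with the smallest root-mean-square difference of centred log2 values. For Malat1 these were Fam13b (0.0864) and Ago3 (0.0880), an Argonaute gene. For Neat1 they were Plag1 (0.0822), a zinc finger gene, and Tctn1 (0.0964). Both were below 1 FPKM in NC and under the SFRP2 label and passed the filter only through the RAB6A libraries, so the filter bears on this likeness. The differences were smallest for Gas5, where Mrpl39 (0.0415), a mitochondrial ribosomal protein gene, and Ubap1 (0.0458) were likewise nearly level across the groups. Snhg1 was most like Ube2j2 (0.0481) and Tmem30a (0.0482), Snhg5 was most like Nek1 (0.0947) and Zmym5 (0.0948), and Snhg8 was most like Dnpep (0.0890) and Hagh (0.0932). Snhg15 was most like Ppp6r2 (0.0591) and Naxe (0.0604). Snhg12 had the least close matches, Timm17b (0.130) and Mob2 (0.132).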

How the data were processed

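RNA-seq was measured in 9 libraries of RAW264.7 cells, grouped by their labels. Values were deposited as FPKM, in which the fragments of a gene are scaled by its length and by library size. The submitters' processing notes name HISAT2, featureCounts and Subread. The build and annotation are not given in the sources used here. Genes are deposited as Ensembl identifiers, of which 27533 of 28137 were named from GENCODE M21 (GRCm38). FPKM multiplied by M21 exon length gave whole reads, within 0.03 of a read in all 9 libraries, for 27084 genes (98.4%), but not for Snhg5 and Snhg15, for which no reads are given. Replicates differed by more than counting noise.

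The groups were compared on the log2 scale, after adding 0.1 to each FPKM, by limma (version 3.58.1, R 4.3.3) with an intensity trend in eBayes. Genes whose FPKM averaged under 0.5 in the 6 libraries compared were left out, and p-values were adjusted by Benjamini-Hochberg over all others. Fold changes are on this log2 scale, which understates those of low genes. The study's methods name a count model, for which FPKM is not suited. A gene was called at an adjusted p under 0.05, and called a DEG where its log2 fold change was also above 1 or below -1. With 3 libraries against 3, an exact permutation test cannot go below p = 0.1, so it made no calls. The limma fit and its calls were tested on simulated data.

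The named genes were the 8 members, the 2 largest called increases and decreases without overlap in each list (where none, the smallest p), and the 2 genes of most similar pattern to each member. Some genes that the rule names are not reported here. The members and lists were chosen with earlier results of these data known. Alternatives were other pseudocounts, filters and scalings, eBayes without a trend, a joint fit of all libraries, a replicate block, a correction for GC content and exon length by splines (5 degrees of freedom), voom on the recovered reads, and leaving out each library. Python 3.11.15, pandas 2.3.3 and matplotlib 3.10.9 were used for the other steps.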

Additional observations from a re-analysis of the deposited data

How the results depend on the processing

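Over all alternatives, Malat1, Neat1, Snhg12 and Snhg15 kept their direction and call under the RAB6A label against NC and against the SFRP2 label wherever they could be fitted (voom could not fit Snhg5 and Snhg15), and none of the 8 genes was called under the SFRP2 label against NC. Directions that reversed belonged to values near 0 that were never called in the fit reported. Neat1 under the SFRP2 label against NC was 0.012 with median-of-ratios scaling, and leaving out 1 library gave -0.037 to 0.035 (0.035 without NC 3, 0.034 without SFRP2 siRNA 3). Snhg5 in that comparison was -0.052 to 0.18, the former without SFRP2 siRNA 2. Gas5 under the RAB6A label against NC was -0.036 without NC 1 and -0.0051 without RAB6A siRNA 2, with up to 0.074 without another. Snhg5 between the RAB6A and SFRP2 labels was -0.016 with quantile normalization, and -0.036, -0.049 and -0.016 without SFRP2 siRNA 1, SFRP2 siRNA 3 and RAB6A siRNA 3, with up to 0.19 without another. Under the SFRP2 label against NC, voom called 41 genes and 2 DEGs, and leaving out 1 library gave 0 to 1 called genes and 0 to 1 DEGs, the 1 without NC 1. With log2(FPKM + 1) the DEGs numbered 2389 of the RAB6A label against NC (3829 as reported) and 2501 against the SFRP2 label (3972 as reported). In the same 2 comparisons, 9457 and 9406 genes were called with log2(FPKM + 1) (9418 and 9369 as reported). The cause of the shifts given here was not tested. Leaving out 1 library gave 5 to 6 of the 8 genes called under the RAB6A label against NC. Same-numbered libraries did not deviate together (r from -0.085 to 0.048), and with a replicate block 0, 9103 and 9159 genes and 0, 6 and 5 of the 8 genes were called in the 3 comparisons, so the block changed no call of the 8 genes. With 3 libraries per group and merged exons, the values cannot resolve isoforms or snoRNAs of these genes.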

Other observations

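Beyond the 8 genes, the annotation placed snoRNA genes inside 294 further genes of the table, some of which were also in the hand-written lists. Of 202 tested protein-coding hosts, 68 rose and 91 fell under the RAB6A label against NC (against 37.6% called higher and 36.5% called lower of all genes tested), with a median log2 fold change of -0.10. The ribosomal protein gene Rpl13 rose from 78.3 ± 1.60 to 253.3 ± 45.2 FPKM (SD, n = 3; log2 fold change 1.68). Enthd1 (-3.43) and Dkc1 (-3.17) fell most, the latter being the same gene as in the list of snoRNP proteins. Of 20 tested hosts with a non-coding class in the annotation, other than the 8 genes, 12 rose and 7 fell, with a median of 0.72. All 8 tested lncRNA hosts of the hand-written list were among these 20. Gm15832 (1.93) and 2900076A07Rik (1.84) rose most, and AC121821.1 (-2.001) and 2700038G22Rik (-1.28) fell most. Under the SFRP2 label against NC no annotated host was called by limma, and 52 of 201 protein-coding hosts had an unadjusted p under 0.05, against 18.5% of all genes. The smallest p among them was that of Rps12, a ribosomal protein gene, with a log2 fold change of -0.44 ± 0.06 (SE, adjusted p = 0.140), which passed with voom (adjusted p = 0.0117).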
